A study of Mus musculus with 9 samples.

Results

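Genes for the breakdown of amino acids and for the methyl-group cycle that starts from methionine were compared between mouse liver tumours and normal liver. The 44 members were chosen by gene symbol, as enzymes of these routes, by a rule that uses no measured value but with earlier results of these data known; 40 of them had a probe set naming that gene alone among the 18193 genes measured, and Acmsd, Amt, Sds and Sdsl were not analysed here. Where several probe sets named a gene, the brightest one, by its mean across the 9 arrays, was read. The tumours were 5 hepatocellular carcinomas of mice that the titles call triple knockout (TKO_HCC). Their listed genotype was RbΔ/Δ; p130Δ/Δ; p107+/-, so both copies of Rb and p130 were deleted and 1 copy of p107 was intact. These mice had been given Ad-Cre, an adenovirus that carries the Cre recombinase, into the spleen 4 months before dissection. The reference tissue was 4 wild-type, adult, tumour-free livers (normal_liver), for which the labels name no virus. Genotype, virus and tumour state therefore differed together between the groups, and neither the exact age nor the sex is given. Whether each array stands for its own mouse is not stated, and the p-values therefore cover only the variation among these samples, which may be partly technical. Values are log2 expression levels deposited by the authors from Affymetrix Mouse Genome 430 2.0 arrays, 1 array per sample; a difference of 1 is a 2-fold change, and a gene passed when its limma p-value, adjusted by the Benjamini-Hochberg method over all genes, was below 0.05.

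The liver is the main site where surplus amino acids are stripped of nitrogen and their carbon is passed to glucose, ketone bodies or the citric acid cycle. Most of these enzymes are made in quantity by hepatocytes, and many are raised by glucagon, glucocorticoids or protein feeding. In the methyl-group cycle, methionine is turned into S-adenosylmethionine, the methyl donor of the cell, and the homocysteine left over is either methylated again or passed on to cysteine. Folate carries the same kind of carbon unit from serine and glycine into nucleotides.

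Promoter sequences are shown for the 3 members with the largest passing decrease, Agxt, Got1 and Aass, and for the member with the largest passing increase, Gldc. They are the 250 bases before and the 50 after the annotated start in RefSeq (build GRCm38.p6), written 5′ to 3′ on the strand of the gene, with CCAAT and its reverse complement ATTGG in capitals.
Agxt (chr1:93134990-93135289, plus strand): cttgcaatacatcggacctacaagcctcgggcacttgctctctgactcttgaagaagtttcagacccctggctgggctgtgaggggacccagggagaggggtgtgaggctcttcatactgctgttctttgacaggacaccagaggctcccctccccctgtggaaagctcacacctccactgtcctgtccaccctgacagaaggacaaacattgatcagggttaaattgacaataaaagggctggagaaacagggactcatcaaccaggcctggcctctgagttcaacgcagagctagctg
Got1 (chr19:43524556-43524855, minus strand): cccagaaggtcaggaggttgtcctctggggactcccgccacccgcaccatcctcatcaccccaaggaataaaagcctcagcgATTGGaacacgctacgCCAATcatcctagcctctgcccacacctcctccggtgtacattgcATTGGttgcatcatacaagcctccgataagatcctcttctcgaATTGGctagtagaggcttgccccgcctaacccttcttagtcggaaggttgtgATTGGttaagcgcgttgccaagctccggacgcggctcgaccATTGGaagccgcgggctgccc
Aass (chr6:23132937-23133236, minus strand): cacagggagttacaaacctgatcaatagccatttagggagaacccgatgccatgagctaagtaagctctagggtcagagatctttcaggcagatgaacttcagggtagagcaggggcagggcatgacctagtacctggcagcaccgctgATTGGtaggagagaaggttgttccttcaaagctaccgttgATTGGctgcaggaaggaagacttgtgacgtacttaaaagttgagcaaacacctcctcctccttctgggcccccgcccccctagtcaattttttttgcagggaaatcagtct
Gldc (chr19:30175392-30175691, minus strand): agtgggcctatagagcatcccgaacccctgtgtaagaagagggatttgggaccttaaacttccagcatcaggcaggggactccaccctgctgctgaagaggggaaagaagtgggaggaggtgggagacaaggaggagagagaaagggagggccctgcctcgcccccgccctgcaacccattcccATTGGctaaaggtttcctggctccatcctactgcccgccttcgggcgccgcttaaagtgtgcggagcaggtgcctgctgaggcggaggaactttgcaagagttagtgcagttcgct
The Got1 promoter held CCAAT, on either strand, at 6 places, that of Aass at 2 and that of Gldc at 1, whereas that of Agxt held 0. None of these 4 windows held CAAAGTCCA (HNF4), TTGCGCAA (C/EBP), TTTGGCGC (E2F) or TATAAA, all searched on both strands, and no match says only that these letters are not in the window. Over the 38 promoters found for 36 of the 44 members, CCAAT stood in 57.9%, against 37.4% of all 32851 promoters in the table; this motif was added after the sequences had been read. CAAAGTCCA was found in 5.26% of the members' promoters (both of Agxt2), against 0.475% of all promoters, TATAAA in 18.4% against 13.6%, and TTGCGCAA and TTTGGCGC in 0 of 38, against 0.183% and 0.514% of all promoters. These are descriptions of letters and no test was made.

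The deleted genes were read as a check of the labels. Rbl2, which encodes p130, stood at 6.77 to 8.43 in tumours and 9.44 to 10.02 in livers, and fell (difference -1.99, adjusted p = 0.00126). Rb1 stood at 8.76 to 9.38 in tumours and 7.69 to 8.33 in livers, and rose (difference 1.05, adjusted p = 0.0018). The labels do not say which exons were deleted, so whether the Rb1 probe set reads the deleted part is not known and its level does not check the genotype. Rbl1, which encodes p107, was dim, at 4.63 to 4.82 in tumours and 4.23 to 5.83 in livers. The tissue label was set against markers: none of 7 measured hepatocyte markers passed, and their summed level ranged from 17.59 to 17.81 over the tumours and from 17.63 to 17.84 over the livers, close to the top of the scale. Of 6 endothelial markers 3 fell (summed level 10.01 to 11.15 in tumours and 12.37 to 12.69 in livers), of 6 stellate and fibroblast markers 2 rose and 1 fell, of 5 lymphocyte markers 1 fell, and of 4 bile duct markers 1 rose and 1 fell; neither of 2 erythroid and neither of 2 neutrophil markers passed. The 3′ minus 5′ log2 value of the Actb control, which reads RNA length, ranged from 0.53 to 0.72 over the tumours and from 0.91 to 1.00 over the livers. That of Gapdh overlapped between the groups, at -0.24 to -0.18 over the tumours and -0.32 to -0.21 over the livers. Xist was low on 3 arrays, 2 tumours and 1 liver. The part of other cells and RNA length in the members' differences was not tested. Array medians were 6.22 to 6.27, and precision is limited by how few arrays there are.

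Most of the measured members were lower in the tumours. Of 40 genes, 20 fell, 2 rose and 18 did not pass. Over all 18193 genes, 17.4% passed lower and 16.1% passed higher (33.5% in either direction). The median log2 difference, tumour minus liver, was -1.07 over the 40 members and -0.08 over all genes. In bulk samples such as these, fewer cells of a type and less RNA per cell cannot be told apart. A decrease of 2-fold or more that passed was seen for 15 members, a class that held 4.38% of all genes. For 22 members all 5 tumours lay below all 4 livers (15.9% of all genes), and for 1 member, Gldc, all tumours lay above all livers (14% of all genes). All 360 member values lay above the highest reading of the bacterial TrpnX control (4.36), and the brightest stood at 14.94 in a table that ends at 15.55, where differences can be compressed. The number of members that fell was 16 to 24 with any 1 array left out and 30 with each array centred on its 75th percentile, a scaling that moved the median of all genes to -0.26 and under which 43.9% of all genes passed lower.

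**Figure D1:**
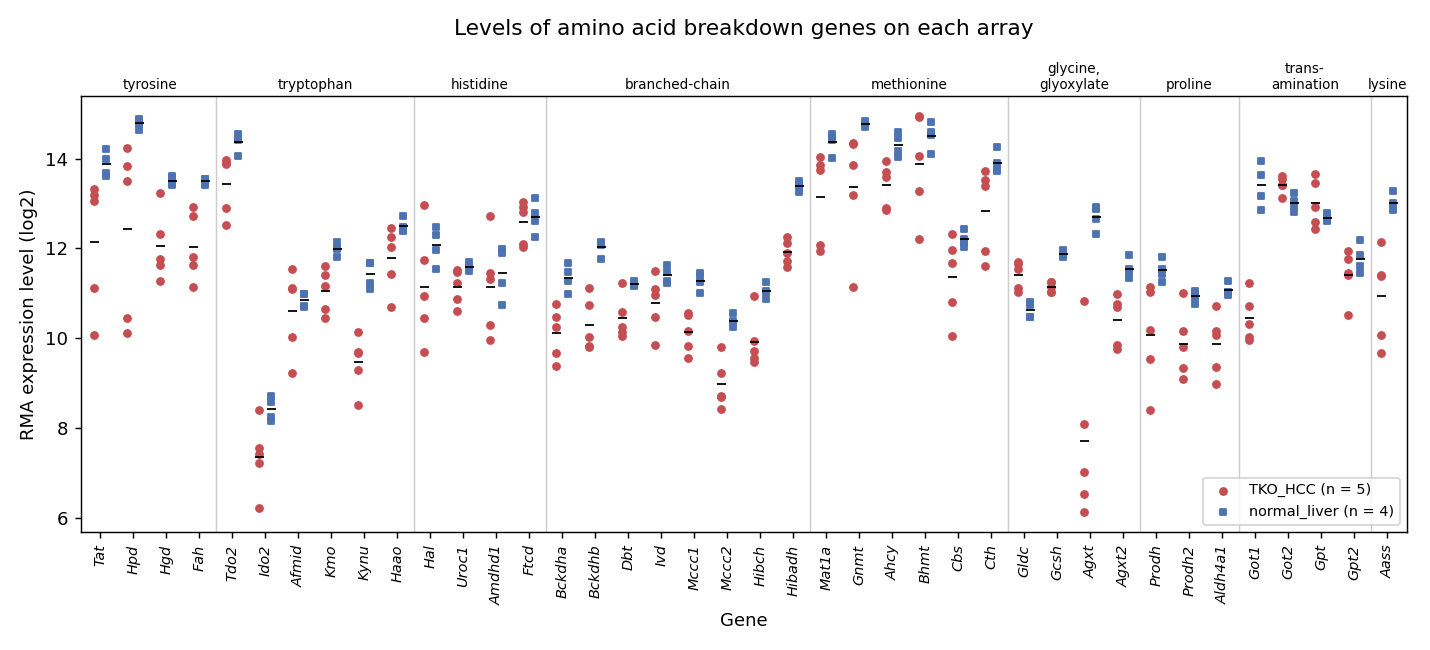
Expression level (log2, y axis) of each of the 40 measured genes (x axis, grouped by amino acid) on every array; red circles are the 5 TKO_HCC tumours, blue squares the 4 normal livers and black bars the group means. The tumours of Agxt and Got1 lie far below their livers, Gldc lies above, and the tumour values of most genes are spread more widely than the liver values.

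**Figure D2:**
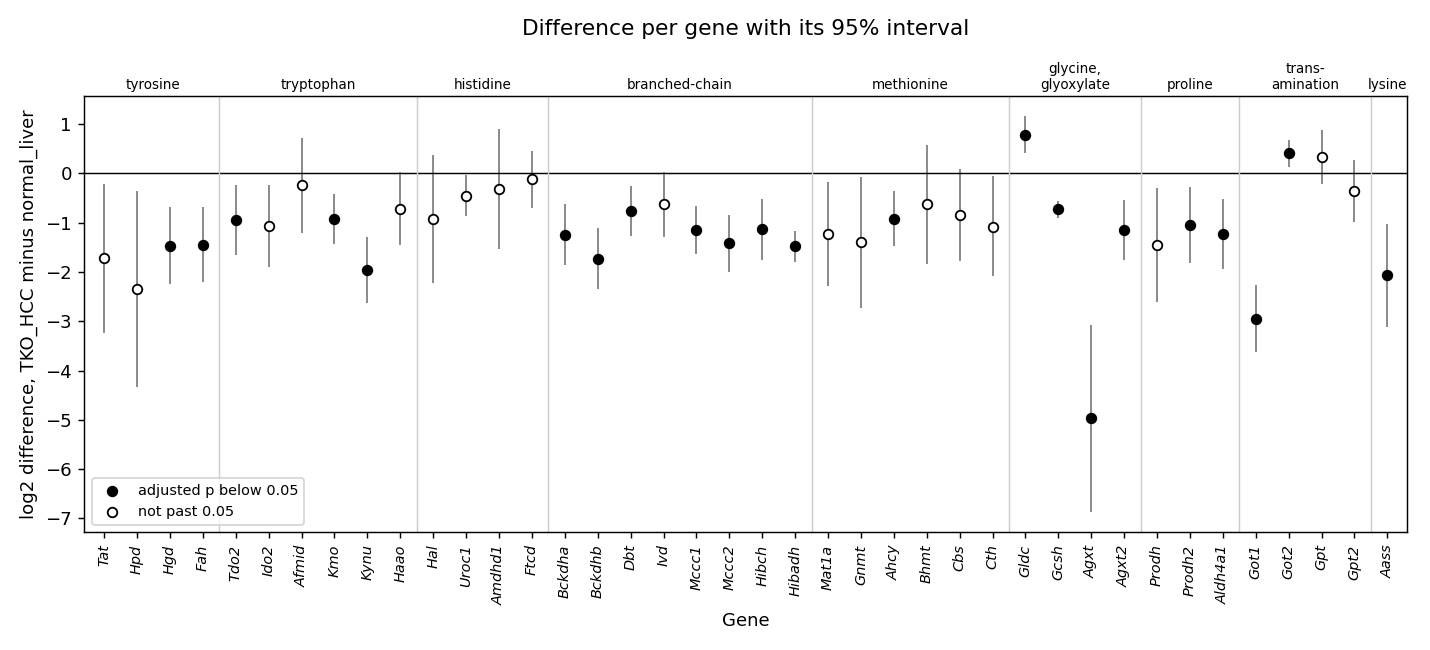
Log2 difference, tumour minus liver (y axis), of each gene (x axis) with its 95% interval from limma; filled circles passed an adjusted p of 0.05 and open circles did not. The filled circles below 0 number 20 and those above 0 number 2 (Gldc and Got2), and the 4 histidine genes are all open.

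Tyrosine breakdown runs from the aminotransferase Tat through the dioxygenases Hpd and Hgd to Fah, the fumarylacetoacetase that is lost in hereditary tyrosinaemia. All 5 tumours lay below all 4 livers for each of these 4 genes, but only Hgd and Fah passed. Hgd stood at 11.64, 11.76, 11.27, 13.23 and 12.32 in tumours 1 to 5, against 13.61, 13.57, 13.46 and 13.42 in livers 1 to 4. Its difference was -1.47 (SE 0.34, adjusted p = 0.0107), and tumour 4 was the nearest to the livers. A dimmer probe set of Hgd did not pass (-0.52, adjusted p = 0.178 among all probe sets), and the mean of both gave -0.99, which passed. Fah stood at 11.64, 12.91, 11.13, 11.81 and 12.71 in tumours 1 to 5, against 13.55, 13.54, 13.42 and 13.43 in livers 1 to 4, a difference of -1.45 (SE 0.34, adjusted p = 0.0103). Tat stood at 11.12, 13.33, 10.06, 13.05 and 13.19 in tumours 1 to 5, against 13.61, 13.67, 14.22 and 14.00 in livers 1 to 4. Tumours 1 and 3 were far lower than the other three, which gave a difference of -1.72 with an SE of 0.67 and an adjusted p of 0.0735. Hpd stood at 10.12, 14.24, 10.44, 13.84 and 13.50 in tumours 1 to 5, against 14.89, 14.83, 14.77 and 14.63 in livers 1 to 4, with tumours 1 and 3 again the lowest. Its difference was -2.35, and with an SE of 0.88 it did not pass (adjusted p = 0.0669). Both Tat and Hpd passed without tumour 2, at -2.02 and -2.80, and Hgd did not pass without the 3 arrays of low Xist (-1.27). Of 6 other measured genes of phenylalanine, tyrosine and biopterin metabolism, 3 fell and 0 rose: Pts (-1.63, or -1.03 with the mean of its probe sets), which makes the cofactor tetrahydrobiopterin, Gstz1 (-0.94), the isomerase that precedes Fah, and Qdpr (-0.82), which regenerates the cofactor. Qdpr did not pass without tumour 1 (-0.76) or without liver 1 (-0.80), 2 (-0.82) or 3 (-0.74).

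In the tryptophan route 3 of 6 measured genes fell, with a median of -0.93. Tdo2 and Ido2 open the ring of tryptophan, Afmid forms kynurenine, Kmo and Kynu process it, and Haao leads towards NAD. Kynu stood at 9.30, 10.13, 8.52, 9.70 and 9.67 in tumours 1 to 5, against 11.67, 11.68, 11.09 and 11.23 in livers 1 to 4. No tumour reached the liver range, and the difference was -1.95 (SE 0.30, adjusted p = 0.00125). Kmo averaged 11.06 ± 0.49 in tumours and 11.98 ± 0.14 in livers (SD, n = 5 and 4; difference -0.92, adjusted p = 0.014). Tdo2, which sets the pace of the hepatic route, averaged 13.43 ± 0.67 in tumours and 14.37 ± 0.22 in livers (SD, n = 5 and 4). Its difference of -0.94 had an adjusted p of 0.0466, which was lost without tumour 1 (-0.71) or 3 (-0.81) and without any of livers 1 to 4 (-0.91, -0.92, -1.04 and -0.88). The other 2 probe sets of Tdo2 fell by 1.35 and 1.46 on the log2 scale and passed among all probe sets. Ido2 was at the threshold, at -1.07 with an adjusted p of 0.0503, and passed without tumour 2 (-1.33). Afmid differed by -0.24 (95% interval -1.21 to 0.72), and by 0.10 without tumour 3, and Haao by -0.72 (-1.45 to 0.02). Among 5 other tryptophan genes Aadat (-1.84) and Kyat3 (-1.09), aminotransferases that act on kynurenine, fell. The call of Kyat3 was lost with housekeeping centring (-1.05), and without tumour 3 (-0.98), 4 (-0.94) or 5 (-0.96) or without liver 1 (-0.99), 2 (-1.11) or 3 (-0.99). Kmo and Kynu are also expressed by macrophages, and 4 of 6 macrophage markers fell, among them Clec4f and Vsig4 of Kupffer cells (-3.51 and -3.85). The remaining markers, Adgre1 (-0.53) and Cd68 (0.69), did not pass, and Cd68 leaned the other way. Summed over these 6 markers, the level ranged from 10.50 to 12.46 over the tumours and from 12.71 to 13.74 over the livers. Their part in the decrease was not tested.

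The histidine genes did not pass in either direction. Hal, which removes ammonia from histidine, ranged from 9.69 to 12.96 over the tumours and from 11.55 to 12.48 over the livers, a difference of -0.92 (95% interval -2.22 to 0.38). Tumour 4 was the highest and lay above every liver. Without tumour 4 Hal passed at -1.37. Uroc1, Amdhd1 and Ftcd, the next enzymes of the route, differed by -0.45 (-0.86 to -0.03), -0.31 (-1.53 to 0.90) and -0.12 (-0.70 to 0.46). In each of these genes the groups overlapped, and Amdhd1 also reached its top value, 12.73, in tumour 4. The difference of Amdhd1 was -0.71 without tumour 4 and -0.01 without tumour 3. Of 3 other histidine genes only Hdc, the histamine-forming decarboxylase, passed (-0.27, adjusted p = 0.0493), a call lost without any of tumours 1 to 5 (-0.27, -0.29, -0.26, -0.30 and -0.25) or without liver 1 (-0.21), 2 (-0.25) or 3 (-0.28), and with housekeeping centring (-0.23).

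The branched-chain route was the group in which the most members fell, 7 of 8, with a median of -1.19. Leucine, isoleucine and valine lose their carboxyl group in a mitochondrial complex whose subunits include Bckdha, Bckdhb and Dbt. Bckdhb stood at 9.80, 10.74, 10.02, 9.82 and 11.11 in tumours 1 to 5, against 12.15, 12.09, 12.08 and 11.77 in livers 1 to 4, a difference of -1.73 (SE 0.28, adjusted p = 0.00165). Bckdha fell by 1.24 (SE 0.28, adjusted p = 0.00893) and Dbt by 0.76 (SE 0.22, adjusted p = 0.0276) on the log2 scale. All tumours lay below all livers for both decarboxylase subunits, whereas for Dbt tumour 5 (11.23) stood among the livers (11.17 to 11.28). Dbt lost its call without tumour 1 (-0.66) or 3 (-0.68) or without any of livers 1 to 4 (-0.73, -0.77, -0.76 and -0.77). Downstream, Hibadh stood at 11.72, 12.25, 11.59, 11.89 and 12.11 in tumours 1 to 5, against 13.51, 13.43, 13.36 and 13.26 in livers 1 to 4. This dehydrogenase of valine breakdown had the smallest adjusted p of the 40 members (8e-05, difference -1.48, SE 0.14), and its tumours varied little. Hibch, the hydrolase before it, fell 2.19-fold, a call lost without the 3 arrays of low Xist (-1.07). The probe sets read for Hibadh and Hibch can cross-hybridise with similar genes, and the other probe set of each also fell (-1.53 and -1.25). The subunits of the leucine enzyme methylcrotonyl-CoA carboxylase fell together, with differences of -1.15 for Mccc1 and -1.41 for Mccc2 (adjusted p = 0.00366 and 0.003). Ivd, a dehydrogenase of leucine breakdown, differed by -0.63 (adjusted p = 0.126) with the brighter probe set. Its dimmer one averaged 9.02 in tumours and 10.80 in livers, fell by 1.78 on the log2 scale and passed.

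Of 15 other measured genes of branched-chain and propionate breakdown, 12 fell and 1 rose, with a median of -1.02. The largest decreases were those of Ppm1k (-2.24), Acadsb (-1.98) and Mcee (-1.72). Ppm1k is the phosphatase that activates the decarboxylase complex, Acadsb a dehydrogenase of isoleucine breakdown, and Mcee the epimerase on the way from propionate to the citric acid cycle. Ppm1k stood at 8.91, 10.16, 9.88, 9.97 and 9.54 in tumours 1 to 5, against 12.26, 12.38, 11.48 and 11.62 in livers 1 to 4. The gene that rose was Bckdk, the kinase that inactivates the same complex, at 8.57, 9.03, 8.72, 7.82 and 8.65 in tumours 1 to 5, against 7.89, 8.03, 7.76 and 8.01 in livers 1 to 4. Tumour 4 lay among the livers, and the difference of 0.63 (SE 0.21) had an adjusted p of 0.0468. That call was lost without tumour 1 (0.63), 2 (0.51), 3 (0.59) or 5 (0.61), without any of livers 1 to 4 (0.62, 0.67, 0.58 and 0.66), without the 3 arrays of low Xist (0.50), with the mean of its probe sets (0.34) and with 75th percentile centring (0.45).

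Genes of the methionine cycle were lower on average but variable, and only 1 of 6 passed, where 17.4% of all genes passed lower. Ahcy, which splits S-adenosylhomocysteine, averaged 13.40 ± 0.50 in tumours and 14.31 ± 0.26 in livers (SD, n = 5 and 4), a difference of -0.92 (adjusted p = 0.0198), and its call was lost without liver 1 (-0.83) or 4 (-0.87). Mat1a stood at 11.95, 13.86, 12.08, 14.04 and 13.75 in tumours 1 to 5, against 14.50, 14.55, 14.41 and 14.02 in livers 1 to 4. Mat1a makes S-adenosylmethionine in adult hepatocytes. Its tumours 1 and 3 were low and tumour 4 lay at the lower end of the livers, with a difference of -1.23 (SE 0.47, adjusted p = 0.0695), past the threshold without tumour 2 (-1.42) or 4 (-1.46). Gnmt stood at 13.18, 14.34, 11.14, 13.85 and 14.32 in tumours 1 to 5, against 14.77, 14.70, 14.83 and 14.78 in livers 1 to 4. Gnmt uses up S-adenosylmethionine by methylating glycine. All tumours lay below the livers, with tumour 3 far below the others, and the difference of -1.40 (SE 0.59) did not pass (adjusted p = 0.0952). Without tumour 3 it was smaller, -0.85, and passed. Cth and Cbs, which carry homocysteine to cysteine, differed by -1.08 and -0.84 without passing. Bhmt, which methylates homocysteine from betaine, ranged from 12.20 to 14.94 over the tumours, around the livers at 14.10 to 14.82, with its lowest value in tumour 4 and a difference of -0.63 (95% interval -1.83 to 0.57), or -0.21 without tumour 4. Among 14 other measured genes of methionine, choline and cysteine metabolism 5 fell and 1 rose. Suox, the sulphite oxidase, fell by 1.97, Dmgdh, which oxidises the dimethylglycine formed by Bhmt, by 1.49 and Bhmt2 by 1.36 on the log2 scale, and Mat2b, a regulatory subunit of the other S-adenosylmethionine synthetase, rose by 0.41. The probe set of Bhmt2 can cross-hybridise with similar genes, and its call was lost without such probe sets (-1.11) and without liver 3 (-1.26). That of Mat2b was lost with housekeeping centring (0.45), with 75th percentile centring (0.23) and without the 3 arrays of low Xist (0.34).

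Glycine and glyoxylate genes moved both ways. Agxt, the peroxisomal aminotransferase that turns glyoxylate into glycine and whose loss causes primary hyperoxaluria, had the largest decrease of the 40 members. Agxt stood at 6.13, 6.53, 7.02, 10.82 and 8.10 in tumours 1 to 5, against 12.87, 12.93, 12.66 and 12.31 in livers 1 to 4. Every tumour lay below every liver, with tumour 4 the nearest and tumour 1 the farthest. The mean difference was -4.97 (SE 0.84, adjusted p = 0.00219), a 31.4-fold decrease. Agxt2, a mitochondrial aminotransferase that also acts on glyoxylate, fell by 1.15 (SE 0.27, adjusted p = 0.0107). In the glycine cleavage system, Gldc stood at 11.66, 11.03, 11.11, 11.53 and 11.70 in tumours 1 to 5, against 10.47, 10.81, 10.47 and 10.74 in livers 1 to 4. This decarboxylase rose by 0.78 (SE 0.16, adjusted p = 0.00646), all tumours above all livers. Gcsh stood at 11.03, 11.26, 11.14, 11.02 and 11.24 in tumours 1 to 5, against 11.82, 11.87, 11.97 and 11.81 in livers 1 to 4, so the lipoyl carrier protein of the same system fell by 0.73 (SE 0.08, adjusted p = 0.000208) with little spread in either group. Of 7 other measured glycine and glyoxylate genes 4 fell and 0 rose, with Glyat, which conjugates acyl groups to glycine, at -1.66, the serine racemase gene Srr at -1.59 and Hoga1, which releases glyoxylate from hydroxyproline, at -1.46.

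Proline breakdown genes fell or did not pass. Aldh4a1, the dehydrogenase shared by proline and hydroxyproline breakdown, averaged 9.86 ± 0.69 in tumours and 11.07 ± 0.13 in livers (SD, n = 5 and 4; difference -1.22, adjusted p = 0.0164). Prodh2, the hydroxyproline dehydrogenase, fell by 1.05 on the log2 scale (adjusted p = 0.0424), a call lost without tumour 1 (-0.91), 3 (-0.85), 4 (-1.12) or 5 (-1.03) or without any of livers 1 to 4 (-1.03, -1.05, -1.11 and -1.01). Prodh stood at 9.53, 10.19, 8.40, 11.03 and 11.15 in tumours 1 to 5, against 11.43, 11.25, 11.54 and 11.80 in livers 1 to 4. This proline dehydrogenase lay below the livers in all tumours but varied between them, with a difference of -1.45 (SE 0.51, adjusted p = 0.0568), and it passed without tumour 4 (-1.69) or 5 (-1.72). Enzymes that make proline moved the other way: Pycrl, a pyrroline carboxylate reductase, rose by 1.05 (SE 0.15) and Aldh18a1, which forms its substrate from glutamate, by 0.98 (SE 0.27), a call lost without liver 1 (0.94) or 4 (0.92). Of the 8 measured genes of proline, ornithine, glutamate and asparagine metabolism outside the members, 3 fell and these 2 rose. The ornithine aminotransferase Oat stood at 7.49, 7.48, 10.45, 9.52 and 8.14 in tumours 1 to 5, against 14.51, 14.34, 14.40 and 14.22 in livers 1 to 4, a 53.9-fold decrease. Glul, the glutamine synthetase of hepatocytes at the central vein, fell 8.44-fold and Nit2, an amidase, 2.16-fold.

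Of the 4 transaminases of aspartate and alanine, Got1 fell, Got2 rose, and Gpt and Gpt2 did not pass. Got1 stood at 10.03, 9.97, 10.31, 11.23 and 10.71 in tumours 1 to 5, against 13.94, 13.64, 13.16 and 12.85 in livers 1 to 4. The cytosolic aspartate aminotransferase fell 7.71-fold (difference -2.95, SE 0.30, adjusted p = 0.000134), with every tumour well below the lowest liver. Got2 stood at 13.42, 13.40, 13.13, 13.55 and 13.61 in tumours 1 to 5, against 13.05, 12.94, 12.82 and 13.23 in livers 1 to 4. The mitochondrial enzyme was slightly higher in tumours, by 0.41 (SE 0.12, adjusted p = 0.0283), with tumour 3 (13.13) below liver 4 (13.23). The call of Got2 was lost without tumour 1 (0.41), 4 (0.38) or 5 (0.36), without liver 1 (0.42), 2 (0.39) or 3 (0.35), without the 3 arrays of low Xist (0.49), with the mean of its probe sets (0.23) and with 75th percentile centring (0.23). Its second-brightest probe set also rose (0.61), while the dimmest, which averaged 3.78 in tumours and 4.09 in livers, near the TrpnX control, fell by 0.31 on the log2 scale. Gpt, the alanine aminotransferase used as a clinical marker of liver injury, differed by 0.33 (adjusted p = 0.314), and its other probe set passed at 1.26. Gpt2, its mitochondrial counterpart, differed by -0.35 (adjusted p = 0.341) with the brightest probe set and by 0.24, 0.44 and 0.30 with the other 3, none of which passed. The probe sets used for Gpt and Gpt2 can cross-hybridise with similar genes.

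Whether enzymes with like reactions changed unequally was tested on each array's own log2 difference between the partners, which no scaling of whole arrays can alter. Of 7 pairs listed, 5 had both partners measured, and p-values from an exact permutation test of the group labels (two-sided, smallest possible value 0.00794) were adjusted over these 5. The pairs were listed with earlier results of the same data known, so these p-values are not independent evidence. Got1 minus Got2 was -3.39, -3.43, -2.82, -2.33 and -2.90 in tumours 1 to 5, against 0.88, 0.70, 0.34 and -0.39 in livers 1 to 4. All tumours lay below all livers, and the means differed by -3.36 (exact p = 0.00794, adjusted p = 0.0397). Agxt minus Agxt2 was -3.71, -4.22, -2.74, -0.16 and -2.60 in tumours 1 to 5, against 1.02, 1.46, 1.11 and 0.98 in livers 1 to 4, a difference of -3.83 (exact p = 0.0159, adjusted p = 0.0397). With any of tumours 1, 2, 3 or 5 left out, both differences remained between -3.85 and -3.24. Their adjusted p was then 0.0714. In groups of equal size every split has a mirror image with the same absolute difference, which raises the smallest possible p. Without any 1 liver, where the groups stay unequal, the adjusted p of both pairs was 0.0446, and without tumour 4 it was 0.0476. For Gpt minus Gpt2 the difference was 0.68 (exact p = 0.294), for Prodh minus Prodh2 -0.40 (exact p = 0.381) and for Bhmt minus Bhmt2 0.73 (exact p = 0.0873, adjusted p = 0.146), the last past the threshold without tumour 4 (1.02, adjusted p = 0.0476). Without cross-hybridising probe sets the difference of Bhmt minus Bhmt2 was 0.48.

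**Figure D3:**
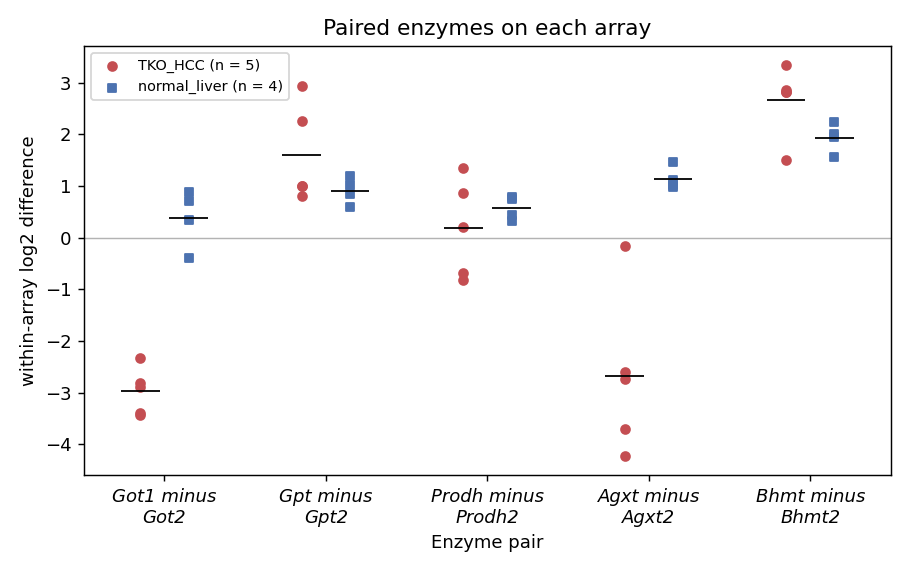
Log2 level of the first enzyme minus that of the second on the same array (y axis) for 5 pairs (x axis); red circles are the 5 tumours, blue squares the 4 livers and bars the group means. For Got1 minus Got2 and Agxt minus Agxt2 all tumours lie below all livers, and tumour 4 is the nearest to the livers in both.

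Aass, which starts the breakdown of lysine, stood at 10.08, 12.15, 9.66, 11.39 and 11.41 in tumours 1 to 5, against 13.28, 13.02, 12.86 and 12.90 in livers 1 to 4. It fell 4.21-fold (difference -2.07, SE 0.47, adjusted p = 0.00878), with tumours 1 and 3 the lowest. The lysine genes outside the members showed 4 decreases and 1 increase among 7. Dhtkd1, of the ketoadipate dehydrogenase, fell by 2.12, Hykk, the hydroxylysine kinase, by 1.84 and the glutaryl-CoA dehydrogenase Gcdh by 1.69 on the log2 scale, and Hykk was at -1.20 with the mean of its probe sets. The call of Dhtkd1 was lost with Xist as a covariate (-2.17), without the 3 arrays of low Xist (-2.39), without tumour 1 (-1.95) or 4 (-2.21) or without any of livers 1 to 4 (-2.02, -2.12, -2.22 and -2.10). Crym, a ketimine reductase that also binds thyroid hormone, stood at 9.51, 7.49, 8.75, 9.76 and 9.24 in tumours 1 to 5, against 5.67, 5.16, 5.17 and 5.43 in livers 1 to 4, and rose 12.0-fold.

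The members varied far more between tumours than between livers. All 40 had the larger SD in the tumours, against 58.0% of all genes, and their median SD was 0.65 in tumours and 0.18 in livers, against 0.19 and 0.16 over all genes. A wide spread in the tumours enlarges the SE and so counts against a call even where the groups do not overlap. Tat, Hpd, Gnmt, Cth and Prodh were 5 members that did not pass although all tumours lay below all livers. Limma fits 1 spread per gene to both groups, and whether separate spreads would change these calls was not tested. The median member differed from the liver mean by -1.60, -0.53, -1.74, -0.67 and -0.63 in tumours 1 to 5, while the median of all genes lay between -0.09 and -0.07 in each tumour. Tumour 3 had the lowest tumour value for 24 members and tumour 1 for 10, and these were the 2 lowest tumours for 29 members. In tumours 2, 4 and 5, 11, 9 and 12 members lay at or above the lowest liver, against 3 members each in tumours 1 and 3. Tumours 1 and 3 were not alike in markers of other cells: the summed level of 6 stellate and fibroblast markers was 13.39 in tumour 3 and 11.50 to 11.71 in the other tumours, against 10.60 to 11.46 in livers. The brightest marker, the collagen gene Col3a1, weighs most in this sum, at 12.81 in tumour 3. Des, Pdgfrb, Col1a1 and Acta2 were also highest in tumour 3, whereas Lrat (7.51) was not. The part of stellate cells and fibroblasts in the values of tumour 3 was not tested.

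**Figure D4:**
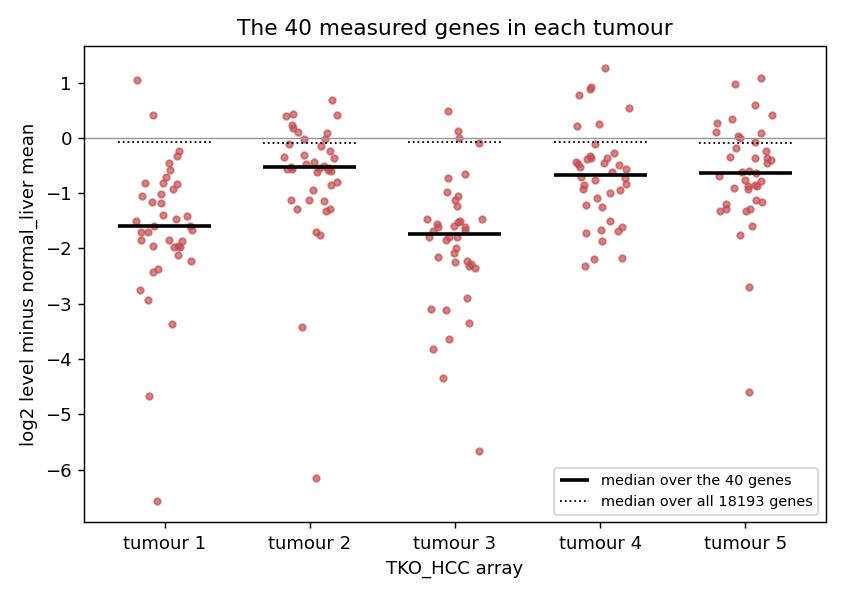
Log2 level of each of the 40 genes minus its mean over the normal livers (y axis) in each TKO_HCC tumour (x axis); each point is a gene, solid bars are medians over these genes and dotted bars medians over all 18193 genes. The solid bars lie at -1.60 and -1.74 in tumours 1 and 3 and between -0.67 and -0.53 in tumours 2, 4 and 5.

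Of 15 measured genes of folate one-carbon metabolism and serine synthesis outside the members, 7 rose and 3 fell, with a median of 0.67. Psat1, the aminotransferase of serine synthesis, stood at 11.33, 8.39, 12.23, 6.05 and 10.46 in tumours 1 to 5, against 5.01, 4.96, 5.14 and 5.20 in livers 1 to 4. It was highest in tumours 3 and 1, the tumours in which most members were lowest, and closest to the livers in tumour 4. The mean difference was 4.61 (SE 1.10, adjusted p = 0.0116), a 24.5-fold increase that did not pass without the 3 arrays of low Xist (4.54). Phgdh, the first enzyme of that synthesis, stood at 11.88, 10.47, 12.00, 10.10 and 11.32 in tumours 1 to 5, against 9.51, 9.43, 9.50 and 9.39 in livers 1 to 4, with its tumours in the same order (difference 1.70, adjusted p = 0.00852). Its probe set can cross-hybridise with similar genes, and with the mean of its probe sets the difference was 3.24. With 5 tumours no correlation between such genes was computed. Tyms, which makes thymidylate from a folate-bound carbon unit, stood at 5.94 to 7.49 in tumours and 4.16 to 4.70 in livers, where the values lie near the TrpnX control. It rose by 2.22 with the probe set read and by 0.82 with the mean of its probe sets, so the size of its change is uncertain. The other 4 that rose, named after their values were seen, were Psph (1.63), the last enzyme of serine synthesis, and Mthfd2 (1.33), Mthfd1l (1.24) and Mthfd2l (0.67) of the mitochondrial folate route. Shmt2 and Aldh1l2 of the same route differed by 0.49 (adjusted p = 0.134) and 0.93 (adjusted p = 0.226) without passing. The genes that fell were Aldh1l1 (-1.61), which removes carbon units from folate in the cytosol, Mthfs (-0.54, its tumours at 4.62 to 4.93, near the TrpnX control) and Shmt1 (-0.53), the cytosolic serine hydroxymethyltransferase. Shmt1 lost its call without liver 1 (-0.50) or 3 (-0.45), with the mean of its probe sets (-0.38), with housekeeping centring (-0.48) and without the 3 arrays of low Xist (-0.58), and Mthfs without the 3 arrays of low Xist (-0.51).

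**Figure D5:**
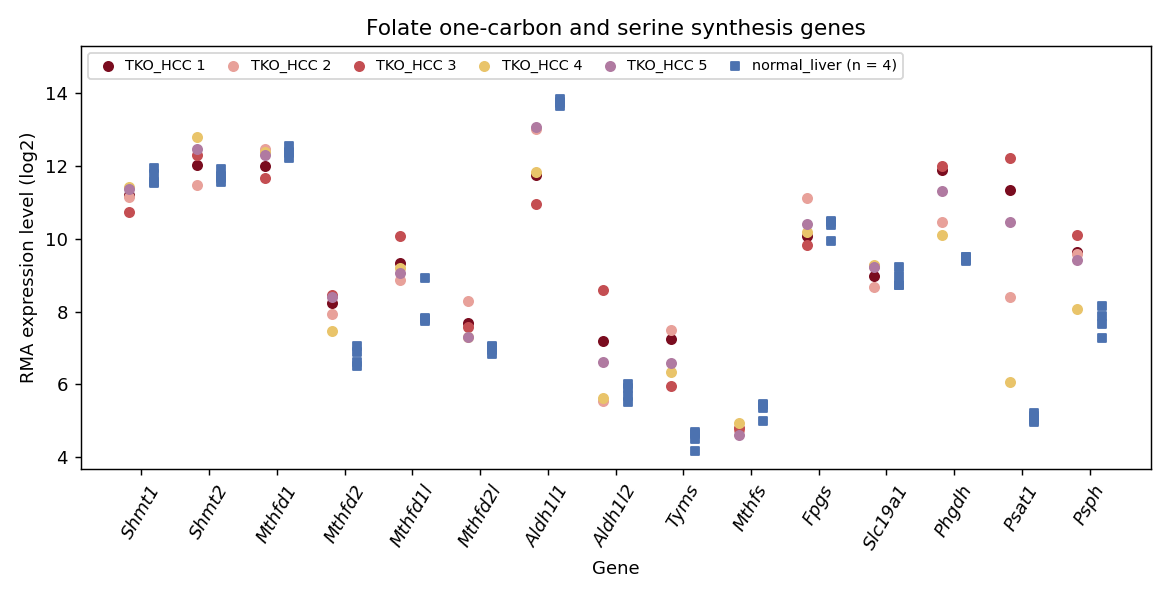
Expression level (log2, y axis) of 15 genes of folate one-carbon metabolism and serine synthesis (x axis); circles are the 5 tumours, each in its own colour, and blue squares the 4 livers. Psat1 spreads from 6.05 in tumour 4 to 12.23 in tumour 3, above livers at 4.96 to 5.20, while Aldh1l1 lies below its livers.

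Among 11 measured regulators of these genes 2 rose and 0 fell, where 16.1% of all genes passed higher and 17.4% lower. Atf4, a factor induced by amino acid shortage, rose by 0.78 (SE 0.17, adjusted p = 0.00744) and Cebpb by 0.46 (SE 0.11, adjusted p = 0.0116). Neither of the 2 measured genes of pyridoxal phosphate supply, the cofactor of the transaminases, passed (Pdxk -0.22 and Pdxp -0.23).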

How the data were processed

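Expression was measured in 5 TKO_HCC tumours and 4 normal livers on Affymetrix arrays. RNA went through 2 rounds of amplification after a Trizol extraction, per the labels' protocols, which can favour the 3′ ends of transcripts. The authors deposited log2 levels, 1 for each probe set; the submitters' processing notes name RMA, with settings not given in the sources used here. RMA gives arrays nearly 1 distribution and compresses dim and very bright differences. Samples were grouped by title, and all 9 columns were used.

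Of 45101 probe sets, 34945 named 1 gene in the platform annotation, 932 several and 9160 none, with 64 controls left out; 34741 were found by identifier in the RefSeq table of GRCm38.p6 and 0 symbols changed. A gene was read from its brightest probe set by mean across the 9 arrays. Probe sets ending in x_at or s_at were read for 6 members. Of 15 members with 23 further probe sets, 4 had one that differed in call. Groups were compared over 18193 genes by limma 3.58.1 under R 4.3.3, using two-sided tests from lmFit and eBayes with no covariate. They were adjusted by Benjamini-Hochberg, with a threshold of 0.05, and adjusted p-values of genes refer to this test. It was tested on simulated data in which both groups had the same spread, unlike the members, which varied more in tumours. Probe sets were also fitted all together. Other steps used Python 3.11.15, numpy 2.4.6, pandas 2.3.3 and matplotlib 3.10.9.

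The members, gene lists, enzyme pairs and tests were chosen with earlier results of these data known. All measured members are named; of each other list, up to 3 largest decreases and 3 largest increases that passed, the second gene of each enzyme pair, or the 2 largest differences where none passed. Partners of 2 enzyme pairs, among them Mat1a with Mat2a, were not measured here. No 2 arrays were near-duplicates (closest pair 0.311 log2 units, root mean square). Alternatives were the probe set rule, 2 centrings, a filter on dim genes (above TrpnX on at least 4 arrays), eBayes with trend and robust, Xist as a covariate, the replicate number as a block and each array left out; the removal of 3 arrays with Xist below 10 was added after seeing the data.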

Additional observations from a re-analysis of the deposited data

Results flagged for a closer look

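Bhmt minus Bhmt2 stood at 1.50 in tumour 4, apart from the other 4 tumours at 2.81 to 3.33 and just below the livers at 1.55 to 2.23. The gap took up 0.72 of the range of the tumours. The Bhmt2 probe set may also bind transcripts of related genes. The value in tumour 4 was the only one of this kind among 162 groups examined, where chance gives about 1 in 20 groups such a value.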

How the results depend on the processing

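Of the 22 members that passed, 13 kept direction and call under all 18 alternatives: Fah, Kmo, Kynu, Bckdha, Bckdhb, Mccc1, Mccc2, Hibadh, Gldc, Gcsh, Agxt, Got1 and Aass. Of the 18 that did not pass, 6 never passed. The number of members that fell ranged from 16 to 30, and the members' median from -1.26 to -0.83. Genes past the threshold numbered 10310 with 75th percentile centring, where 22.6% of calls were higher against 48% before, and 4632 to 6361 with 1 array left out; after housekeeping centring 61% were higher. The number of members that rose was 1 with the mean of probe sets, with 75th percentile centring and without the 3 arrays of low Xist, 3 without cross-hybridising probe sets, where Gpt passed (1.26), and 1 to 2 with 1 array left out. With Xist as a covariate Tdo2 did not pass (-0.92).

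The deviations of same-numbered tumours and livers had correlations over genes of -0.13, -0.07, 0.18 and -0.12. Those of other tumour and liver pairs lay between -0.15 and 0.18. Such correlations cannot show whether same-numbered samples share more than a number. With the replicate block, which leaves out tumour 5, 3552 genes passed and 16 members fell. Hibch (-1.08), Ahcy (-1.00), Agxt2 (-1.22), Aldh4a1 (-1.29) and Prodh2 (-1.03) lost their call there, and Prodh passed (-1.72). Permuted within that block, Got1 minus Got2 (-3.37) and Agxt minus Agxt2 (-3.85) had an adjusted p of 0.312, which fewer splits alone bring about; the same holds without the 3 arrays of low Xist (-3.32 and -3.03, adjusted p = 0.25). With 1 array left out the pairs ranged from -3.61 to -3.19 (Got1/Got2), -4.46 to -3.44 (Agxt/Agxt2), 0.35 to 0.88 (Gpt/Gpt2), -0.69 to -0.15 (Prodh/Prodh2) and 0.56 to 1.02 (Bhmt/Bhmt2).

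Values that changed sign were those of genes that had not passed: Gpt2 (0.16 with the mean of probe sets and 0.44 without cross-hybridising ones), Afmid (0.10 without tumour 3, the top of a range from -0.48) and Ftcd (0.0 without tumour 1, 0.02 without tumour 3 or liver 4, -0.26 to 0.02 with any 1 array left out, and 0.11 without the 3 arrays of low Xist).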
